A study of Mus musculus with 22 samples.

Results

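The calcium handling genes Atp2a2, Pln, Sln, Casq2, Hrc, Trdn, Ryr2, Jph2, Slc8a1 and S100a1 were followed by symbol in RNA sequencing of mouse cardiac fibroblasts (CF) and cardiomyocytes (CM). They are 10 of the 23359 genes for which an FPKM value (sequenced fragments per unit of transcript length and of library size) was listed. Every library came from wild type male C57BL/6 mice aged 10 to 14 weeks. Of the 19 fibroblast libraries, 3 were from sedentary mice, 2 from mice on day 3 of a sham operation, 3 each from day 3 and day 10 of TAC, 2 from day 5 of MI, and 3 each from mice with 4 or with 10 days of swimming. The 3 cardiomyocyte libraries were from sedentary mice. TAC is read here as transverse aortic constriction, a pressure overload of the left ventricle, and MI as myocardial infarction. The only sham group is that of day 3, so the 10 day TAC and the MI libraries were set against sedentary mice, which had no operation. How the cells were isolated is not given in the sources used here.

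In a heart muscle cell each beat starts with calcium entry at the cell membrane, which opens ryanodine receptors and releases the far larger store held in the sarcoplasmic reticulum. Relaxation follows when the SERCA2 pump returns calcium to the store and the sodium-calcium exchanger moves the rest out of the cell. Fibroblasts do not beat and use calcium mainly for signalling, so these genes are best known from the muscle cell.

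Each group was described by its libraries, and total FPKM per library ran from 85.1 to 205 in units of 1000. Counts were not used here, and the depth of each library is unknown. All 16 genes of a cardiomyocyte marker list (Myh6, Tnnt2, Actc1 and others) were above 0 in some library of every fibroblast group. Their summed level was 18903 to 23823 FPKM in cardiomyocytes and 63.3 to 970 FPKM in fibroblast libraries. By group, this sum was 63.3 to 411 (sedentary), 233 to 265 (sham), 251 to 285 (3 day TAC), 225 to 970 (10 day TAC), 213 to 239 (MI), 186 to 305 (4 day swim) and 123 to 351 FPKM (10 day swim). Expression also depended on transcript length in a way that differed between groups: FPKM fell by 0.18 to 0.30 log2 units per doubling of length in sedentary, sham and MI fibroblasts, by 0.51 to 0.84 after TAC or swimming, and by 0.59 to 0.68 in cardiomyocytes. Differences are therefore given as deposited and, where it matters, after subtracting a smooth trend over length and GC content from each library. The members lie at opposite ends of that scale: the longest listed transcript has 18464 bases for Slc8a1 and 16814 for Ryr2, against 1318 for Sln and 677 for S100a1.

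The promoters of Casq2, Pln and Slc8a1 are shown because they hold matches to muscle or cardiac motifs and because these genes behaved differently in the fibroblast libraries. Casq2 changed with TAC, and Slc8a1 as deposited was highest after MI. Pln passed the test used below in no comparison between fibroblast groups, though the authors' deposited table lists it as changed in some. Each line gives the 250 bases before the start, 5′ to 3′ on the gene's strand, from RefSeq on GRCm38.p6, and capitals mark the motif matches. Both strands were searched for the MEF2 motif and the CArG motif, each taken by name. The GATA factor motif was searched as AGATAA. The TATA box was searched as TATAAA, which can lie within a MEF2 match but did not in these windows. The E-box of muscle regulators was searched as CAGCTG.
Casq2: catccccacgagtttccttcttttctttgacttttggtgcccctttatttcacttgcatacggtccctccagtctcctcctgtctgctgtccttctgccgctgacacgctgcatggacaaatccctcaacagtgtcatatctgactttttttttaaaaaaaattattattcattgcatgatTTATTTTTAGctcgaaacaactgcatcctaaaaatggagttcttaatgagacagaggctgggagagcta
Pln: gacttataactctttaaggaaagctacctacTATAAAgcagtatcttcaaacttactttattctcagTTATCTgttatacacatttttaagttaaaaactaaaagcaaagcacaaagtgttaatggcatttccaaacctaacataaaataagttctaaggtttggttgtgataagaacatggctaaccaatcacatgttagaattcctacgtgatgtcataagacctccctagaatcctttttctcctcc
Slc8a1: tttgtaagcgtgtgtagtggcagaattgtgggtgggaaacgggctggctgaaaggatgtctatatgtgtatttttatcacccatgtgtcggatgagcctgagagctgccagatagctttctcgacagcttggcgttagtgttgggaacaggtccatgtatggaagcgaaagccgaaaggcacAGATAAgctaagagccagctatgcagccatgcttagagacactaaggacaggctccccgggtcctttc

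The Casq2 window (chr3:102086165-102086414, plus strand) holds a MEF2 match at positions -69 to -60 from the start, a motif found in 2.92% of 32851 RefSeq promoters of the table, searched over the same length. The Pln window (chr10:53337436-53337685, plus strand) holds TATAAA at -219 to -214, as 12.4% of promoters do, and the GATA motif on the reverse strand at -183 to -178. The Slc8a1 window (chr17:81738388-81738637, minus strand) holds the GATA motif at -68 to -63, and 9.99% of promoters hold it. Of the 10 genes, 7 had an entry. The windows of Jph2 and Hrc hold the E-box, found in 13% of promoters, and those of Ryr2 and S100a1 hold none of the motifs searched. A match describes the letters of the window only.

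In cardiomyocytes the 10 genes ran from 743 to 0.926 FPKM. This scale is per unit length, but in these libraries it still fell with transcript length, and Slc8a1 and Ryr2, near the bottom, have the longest transcripts. The order is therefore that of the listed values. Pln, the brake on the SERCA2 pump, had the highest level (743 ± 182 FPKM, SD, n = 3), followed by Atp2a2, the pump itself (548 ± 116), and S100a1, a small calcium binding protein that modulates pump and release channel (481 ± 68.3). Casq2, the main calcium buffer of the store, stood at 126 ± 7.68 FPKM, Hrc, a histidine-rich store protein, at 65.4 ± 12.4, and Jph2, which ties the store to the cell membrane, at 25.5 ± 3.25. The lowest levels were those of Trdn, which links calsequestrin to the release channel (6.93 ± 1.07 FPKM), Ryr2, the release channel (6.16 ± 1.38), Slc8a1, the sodium-calcium exchanger (3.09 ± 0.459), and Sln, a pump inhibitor best known from atrium and skeletal muscle (0.926 ± 0.691). Among neighbours in this order, the libraries of Pln and Atp2a2, of Atp2a2 and S100a1, and of Trdn and Ryr2 overlapped, and no other neighbours did. The plot of levels by group shows this order and, below it, the fibroblast libraries.

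**Figure D1:**
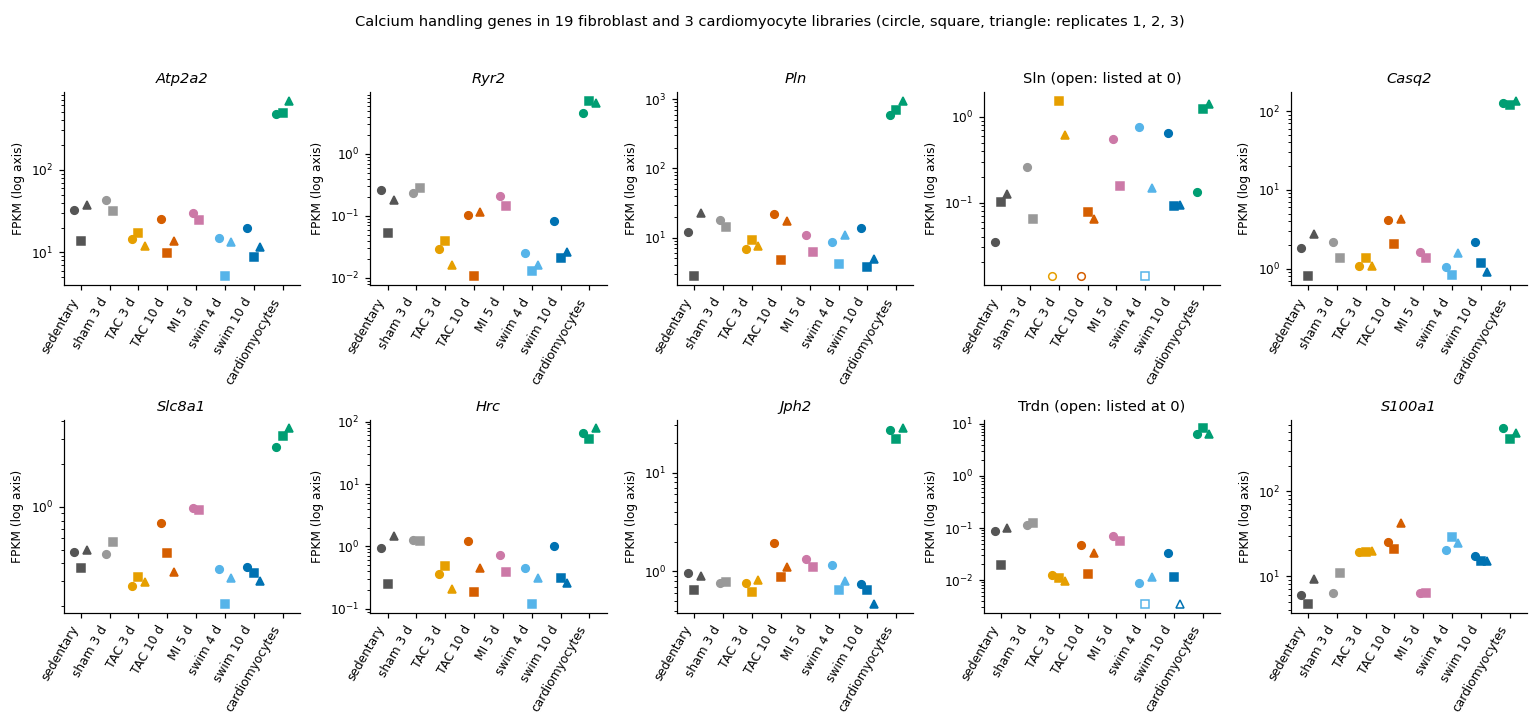
Each panel shows 1 gene, with FPKM on a log axis against group and a circle, square or triangle for replicates 1, 2 and 3 (open symbols are libraries listed at 0). Cardiomyocytes lie above every fibroblast library for each gene except Sln; S100a1 is lowest in sedentary, sham and MI fibroblasts (4.68 to 10.8 FPKM), and Slc8a1, as deposited, is highest after MI (0.954 and 0.985 FPKM).

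Against sedentary fibroblasts, cardiomyocytes were higher in 10 of 10 genes by limma at a Benjamini-Hochberg adjusted p under 0.05, in a fit where 38.7% of 10371 genes were called higher. Ryr2, Trdn and Slc8a1 reached 1 FPKM in 0 of the 19 fibroblast libraries and Sln in 1. These genes thus passed the filter only through the cardiomyocytes, the group where they are high. With no filter 10 of 10 were also called higher, where 27.1% of 20951 genes were. The cardiomyocyte values also lay above the sedentary fibroblast values for all 10, as they did for 27.4% of 20951 genes. The median difference of the 10 was 4.10 log2 units, beside -0.05 over all genes tested. With the length and GC trend removed 9 of 10 were called higher by limma, where 39.9% of 9780 genes were. The median difference was then 4.46, beside 0.03 over all genes. The ratios given next are as deposited, between cell types that differ in length slope. S100a1 was 411 to 547 FPKM in cardiomyocytes and 4.68 to 9.14 in sedentary fibroblasts, a ratio of means of 73.0 and a difference on the log2(FPKM + 1) scale of 6.02 (SE 0.25, adjusted p = 1.96e-14). Casq2 was 119 to 135 FPKM against 0.795 to 2.74, a ratio of 70.5 (log2 difference 5.57, SE 0.25, adjusted p = 6.9e-14). Atp2a2 was 471, 491 and 681 FPKM against 32.3, 13.8 and 37.5, a ratio of 19.7 (log2 difference 4.34, SE 0.40, adjusted p = 6.81e-09). The gap was narrower for the pump than for the store protein: the lowest of all 19 fibroblast libraries still had 5.13 FPKM of Atp2a2.

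Slc8a1 had the smallest ratio as deposited among the genes whose call held throughout: 2.62, 3.11 and 3.54 FPKM in cardiomyocytes against 0.481, 0.370 and 0.494 in sedentary fibroblasts, a ratio of 6.90 (log2 difference 1.49, SE 0.10, adjusted p = 2.51e-11, limma). Slc8a1 and Sln are among the genes that passed the filter only through the cardiomyocytes. Sln differed by 0.75 (SE 0.32, adjusted p = 0.0431), with cardiomyocyte libraries at 0.133, 1.24 and 1.40 FPKM and sedentary fibroblasts at 0.0343, 0.101 and 0.127. The lowest cardiomyocyte library was thus close to the fibroblasts. The Sln call was lost with a pseudocount of 0.1 (adjusted p = 0.0689), with the length and GC trend removed (0.16, adjusted p = 0.673) and on leaving out any 1 library other than cardiomyocyte replicate 1 (0.55 to 0.78, adjusted p from 0.0686 to 0.170, by limma).

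Expressed as a percent of the mean cardiomyocyte level, the fibroblast libraries showed different fractions for different genes. The 16 cardiomyocyte markers were put on the same scale for comparison. Trdn (0 to 1.78%, median 0.279% over 19 libraries), Hrc (0.182 to 2.28%, median 0.690%), Ryr2 (0.171 to 4.51%, median 0.858%), Casq2 (0.629 to 3.39%, median 1.08%) and Pln (0.369 to 3.00%, median 1.25%) lay above all 16 markers in 0 of 19 libraries. Jph2 (1.83 to 7.56%, median 3.15%) lay above all 16 in 5 libraries, Atp2a2 (0.937 to 7.82%, median 2.72%) in 8 and S100a1 (0.972 to 8.86%, median 3.62%) in 8. Slc8a1 (6.71 to 31.8%, median 11.96%) lay above all 16 in 19 of 19 libraries. Sln (0 to 166%, median 10.9%) did so in 14, against a cardiomyocyte level of about 1 FPKM. These percents are as deposited. The length slope was -0.30 to -0.18 in sedentary, sham and MI fibroblasts and -0.68 to -0.59 in cardiomyocytes. In those fibroblasts the percent of a long transcript such as Slc8a1 is thus raised relative to that of a short one such as S100a1. In the TAC and swim libraries (slope -0.84 to -0.51) Slc8a1 was 6.71 to 24.9%. In such bulk samples, fewer cells of a type and less RNA per cell cannot be told apart.

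**Figure D2:**
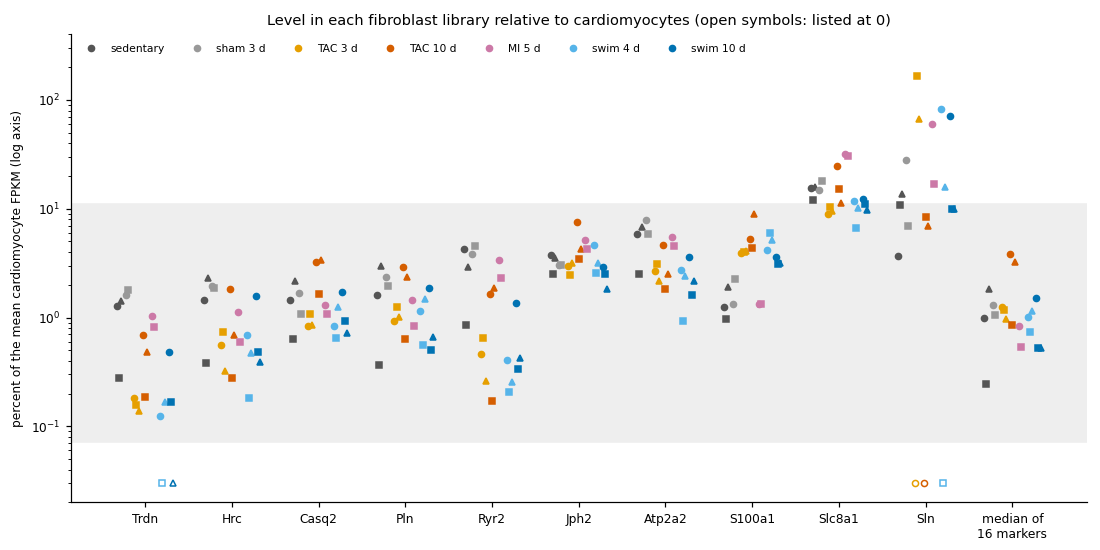
Each point is 1 of 19 fibroblast libraries, its level given as percent of the mean cardiomyocyte FPKM on a log axis. Genes are ordered by their median over fibroblast and cardiomyocyte libraries together. The median of the 16 cardiomyocyte markers is the last column, and a grey band gives the range of those markers. Levels are as deposited, without the length correction. Trdn, Hrc, Casq2, Pln and Ryr2 lie within or below the band, and Slc8a1 lies between 6.71 and 31.8%.

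The median over the 10 genes of the percent of the cardiomyocyte level was 2.16% in sedentary, 2.59% in sham, 1.86% and 2.87% after 3 and 10 days of TAC, 2.09% after MI, and 1.54% and 1.78% after 4 and 10 days of swimming. The median of the 16 markers in the same groups was 1.02%, 1.17%, 1.18%, 2.70%, 0.694%, 0.932% and 0.861%. Both were highest after 10 days of TAC, and the markers differed more between groups than the 10 genes did.

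Between fibroblast groups, 6 of the 10 genes reached 1 FPKM in at least 2 libraries and entered the test: Atp2a2, Pln, Casq2, Hrc, Jph2 and S100a1. Ryr2, Trdn, Slc8a1 and Sln did not, and were tested with a minimum and pseudocount of 0.1 FPKM, a setting chosen after seeing the data. Nothing in the labels says that the libraries of a group are different animals; the p-values therefore reflect only how far these libraries spread. The comparisons of 10 day TAC, MI, sham and both swim groups share the sedentary libraries as control, so their values are given side by side only.

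After 3 days of TAC against sham, S100a1 rose, Atp2a2 and Hrc fell, and the other 3 tested genes were not called; over all genes 31.3% were called higher and 25.8% lower. After 10 days of TAC against sedentary, S100a1 and Casq2 rose, where 38.8% of genes were called higher and 27% lower. After 4 days of swimming S100a1 rose and Atp2a2 fell (all genes 38.2% higher, 26.3% lower), and after 10 days S100a1 rose (30% higher, 13.6% lower). After MI, 0 of the 6 were called and 0 had an unadjusted p under 0.05 by limma, where 8.93% of genes were called higher and 2.34% lower. Sham against sedentary gave 0 calls among the 6, and 0 at an unadjusted p under 0.05, where 0.0212% of all genes were called. These shares are close to or below the background in most comparisons, so the calls describe single genes. With the length and GC trend removed, Hrc fell after 3 days of TAC against sham (18.6% of all genes lower), Casq2 and S100a1 rose after 10 days of TAC (37.2% higher), and S100a1 rose and Hrc fell after 4 days of swimming (37.1% higher, 16.4% lower).

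Between treated groups, 3 of the 6, Casq2, Jph2 and S100a1, were lower after 10 days of swimming than after 10 days of TAC (all genes 10.9% higher, 13.2% lower). Casq2 was higher after 10 than after 3 days of TAC (all genes 4.42% higher, 2.18% lower). Neither 10 against 4 days of swimming (0.318% of all genes called, 1 of the 6 at an unadjusted p under 0.05) nor 4 days of swimming against 3 days of TAC (8.86% called, 0 of the 6 at an unadjusted p under 0.05) gave a call by limma. The change over time in TAC minus that in swimming was called for 0 of the 6, with 3 at an unadjusted p under 0.05, where 6.16% of genes were called: Casq2 0.86 (adjusted p = 0.141), Jph2 0.59 (adjusted p = 0.085) and S100a1 1.12 (adjusted p = 0.0702, limma). The plot of differences shows these values for the 6 genes.

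**Figure D3:**
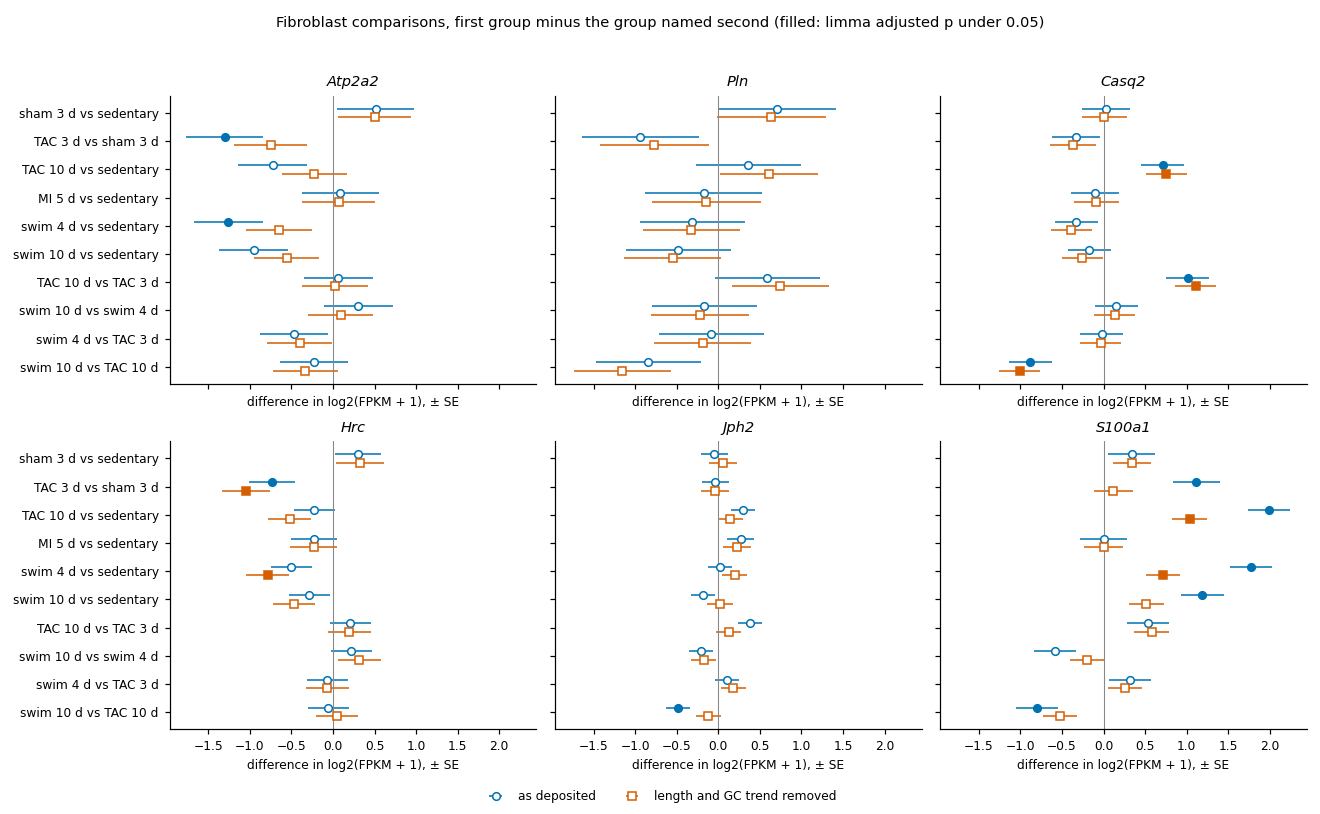
Log2 differences of FPKM + 1 (points) with their standard errors (bars) for the 6 tested genes in 10 comparisons between fibroblast groups, as deposited (circles) and with the length and GC trend removed (squares); filled symbols have an adjusted p under 0.05. S100a1 lies to the right in TAC and swimming as deposited and moves toward 0 with the trend removed (from 1.12 to 0.12 for 3 day TAC against sham), while Casq2 hardly moves.

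By range alone, with no test, the 3 day TAC libraries lay below both sham libraries for 6 of the 10 genes (Atp2a2, Pln, Hrc, Trdn, Ryr2 and Slc8a1) and above for 1 (S100a1), where 28.8% of 20951 genes lay below and 22.2% above. After 10 days of TAC, 5 genes (Casq2, Jph2, Slc8a1, S100a1 and Trdn) lay above the 3 day TAC libraries, as 12% of genes did. After MI, 3 genes (Slc8a1, Sln and Jph2) lay above the sedentary libraries, as 23.2% of genes did. After 4 days of swimming 3 genes (Ryr2, Trdn and Slc8a1) lay below the sedentary libraries, as 21.4% did, and 1 (S100a1) above, as 21.8% did. With 2 or 3 libraries a group such separations are frequent.

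Atp2a2 (mm10 chr5:122453512-122502225), the SERCA2 pump that refills the store, was above 5 FPKM in every fibroblast library. Its levels were 32.3, 13.8 and 37.5 FPKM in sedentary fibroblasts and 42.8 and 32.2 in sham. They were 14.7, 17.0 and 11.99 after 3 days and 25.2, 9.93 and 13.6 after 10 days of TAC, 30.2 and 24.8 after MI, 14.9, 5.13 and 13.2 after 4 days and 19.7, 8.85 and 11.8 after 10 days of swimming. The 3 day TAC libraries all lay below both sham libraries, while the 4 day swim libraries overlapped sedentary replicate 2.

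Against sham, Atp2a2 fell by 1.30 on the log2 scale after 3 days of TAC (SE 0.46, adjusted p = 0.0239, limma), a ratio of means of 0.389. It fell by 1.26 after 4 days of swimming (SE 0.41, adjusted p = 0.0137), a ratio of 0.398 to sedentary. With the length and GC trend removed neither difference was called (-0.75, adjusted p = 0.176, and -0.65, adjusted p = 0.175). The TAC call was also lost without sham replicate 1 (adjusted p = 0.148) or 3 day TAC replicate 3 (adjusted p = 0.0707), and the swim call without sedentary replicate 1 (adjusted p = 0.0565), sedentary replicate 3 (0.0676) or 4 day swim replicate 2 (0.0944). The differences were -0.95 after 10 days of swimming (adjusted p = 0.0714), -0.73 after 10 days of TAC (adjusted p = 0.131) and 0.09 after MI, none of them called by limma. Skeletal muscle genes moved in the same comparisons: 4 of 6 tested genes of that list fell after 3 days of TAC and 5 of 6 after 4 days of swimming, where the remaining gene rose, and the list's 9 genes, none of them at 0 throughout these groups, summed to 4.32 to 6.01 FPKM after 3 days of TAC against 17.1 to 18.4 (sham), and to 2.32 to 3.93 after 4 days of swimming against 5.03 to 17.4 (sedentary). This list was also high in cardiomyocyte libraries, at 394 to 596 FPKM. Its myosin genes Myh1, Myh2, Myh4 and Myh8 lay close together and ran with Myh6. They were 3.07, 3.26, 3.25 and 3.14 FPKM beside 10.4 for Myh6 in sedentary fibroblast replicate 1. In cardiomyocyte replicate 1 they were 102, 111, 110 and 105 FPKM beside 374. The counts of this list may therefore not be separate from Myh6, and sharing of reads between these genes was not tested. Of the cardiomyocyte markers, 1 of 15 tested fell after 3 days of TAC and 2 of 15 after 4 days of swimming, and their sum after 3 days of TAC (251 to 285 FPKM) was not below that in sham (233 to 265). Once that trend was removed, 3 of the 15 fell in each comparison, and the list's median log2 difference after 3 days of TAC went from 0.18 to -0.46. The part of either list in the result was not tested. Atp2a1, the pump of fast skeletal muscle, is a close copy of Atp2a2 in sequence, so the split of reads between both is uncertain.

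Pln (phospholamban, listed at mm10 chr10:53278080-53379851, a span that also takes in Cep85l; GENCODE places the gene at chr10:53337667-53345987) restrains the pump until it is phosphorylated. Its levels were 11.9, 2.74 and 22.3 FPKM in sedentary fibroblasts, 17.6 and 14.4 in sham, 6.91, 9.30 and 7.51 after 3 days and 21.5, 4.68 and 17.5 after 10 days of TAC. They were 10.8 and 6.17 after MI, 8.49, 4.14 and 10.97 after 4 days and 13.9, 3.72 and 4.89 after 10 days of swimming. The sedentary and 10 day TAC libraries spread several-fold within their own group, and the low ones, replicate 2 in each, were also low in the summed cardiomyocyte markers (63.3 and 225 FPKM). No comparison between fibroblast groups was called by limma, and 3 day TAC lay below sham by range (-0.94, SE 0.70, adjusted p = 0.269, limma). The authors' deposited table differs: there Pln was higher after 10 than after 3 days of TAC by 1.05 (q = 0.0088). It was also lower after 10 days of swimming than after 10 days of TAC, by -1.37 (q = 0.000407).

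Sln (sarcolipin, mm10 chr9:53850250-53853849) was listed at 0 in 3 fibroblast libraries and exceeded 1 FPKM in 1, 3 day TAC replicate 2 (1.54 FPKM). The remaining 3 day TAC libraries were 0 and 0.616, MI 0.552 and 0.156, 4 day swim 0.765, 0 and 0.148, and 10 day swim 0.653, 0.0913 and 0.0924 FPKM. Sedentary, sham and 10 day TAC libraries were between 0 and 0.261 FPKM. Within each of the TAC 3 day, MI and swim groups, 1 or 2 libraries stood out and the rest were near the sedentary level. Myl7, the atrial myosin light chain, was high in 3 of them: 1.71 FPKM in 3 day TAC replicate 2, 1.28 in 4 day swim replicate 1 and 0.933 in 10 day swim replicate 1. It was 0.439 in MI replicate 1 and 0.313 in 3 day TAC replicate 3, near or below sham replicate 1 (0.412) and sedentary replicate 2 (0.371), and 0.691 in 4 day swim replicate 3, where Sln was low. Over the 19 fibroblast libraries Sln and Myl7 correlated (Pearson r = 0.88, Spearman rho = 0.90), as a description of libraries that share treatment within a group. The correlation was 0.17 with Nppa and -0.03 with Myl4, both also of the atrial list.

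Casq2 (mm10 chr3:102086454-102146512), the cardiac calsequestrin that binds calcium inside the store, rose after 10 days of TAC. Its levels were 4.13, 2.07 and 4.28 FPKM after 10 days and 1.06, 1.37 and 1.08 after 3 days of TAC. They were 1.84, 0.795 and 2.74 in sedentary fibroblasts, 2.14 and 1.36 in sham, 1.64 and 1.35 after MI, 1.06, 0.820 and 1.58 after 4 days and 2.17, 1.19 and 0.917 after 10 days of swimming. All 10 day TAC libraries lay above all 3 day TAC libraries, but replicate 2 overlapped the sedentary and 10 day swim libraries.

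The rise was 1.01 against 3 days of TAC (SE 0.26, adjusted p = 0.0242), a ratio of means of 2.99, and 0.71 against sedentary (SE 0.26, adjusted p = 0.0226), a ratio of 1.95. After 10 days of swimming Casq2 was 0.88 log2 units lower than after 10 days of TAC (SE 0.26, adjusted p = 0.0211, limma), a ratio of 0.408. With the length and GC trend removed the 3 differences were 1.11 (adjusted p = 0.012; 4.74% of all genes higher), 0.75 (0.0164) and -1.01 (0.0096; 11.4% lower), all called by limma. Leaving out 1 library ended the call against 3 day TAC in 4 of 6 cases (3 day TAC replicates 1 and 3, 10 day TAC replicates 1 and 3; adjusted p from 0.0729 to 0.097). It ended the call against sedentary without sedentary replicate 2 (0.42, adjusted p = 0.146), 10 day TAC replicate 1 (0.0847) or replicate 3 (0.0975), and the call between swimming and TAC without 10 day TAC replicate 1 (0.0672), replicate 3 (0.104) or 10 day swim replicate 3 (0.106). Fitted on the compared groups alone, the rise against sedentary was not called (adjusted p = 0.0607). The cardiomyocyte markers moved with it: 9 of 15 tested markers rose in 10 day TAC against sedentary and 5 of 15 were lower in 10 day swim than in 10 day TAC, and the summed markers in 10 day TAC replicates 1 to 3 were 774, 225 and 970 FPKM, which follows the order of Casq2. In 10 against 3 day TAC, where the Casq2 difference was largest, 0 of the 15 were called, where 4.42% of all genes were called higher. The median percent of the 16 markers was 1.18% after 3 days and 2.70% after 10 days of TAC. Their sum was 251 to 285 FPKM after 3 days, below 10 day TAC replicates 1 and 3 and above replicate 2. In the same comparison 6 of 10 endothelial and 3 of 11 smooth muscle and pericyte markers rose. In 10 day swim against 10 day TAC, 5 of 10 endothelial and 6 of 11 smooth muscle and pericyte markers were lower. The summed endothelial list was 128 to 261 FPKM (10 day TAC), 37.8 to 69.9 (3 day TAC) and 56.1 to 81.6 (10 day swim). The part of these lists in the result was not tested.

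Hrc (mm10 chr7:45335268-45338972), the histidine-rich calcium binding protein of the store, was 0.943, 0.251 and 1.49 FPKM in sedentary fibroblasts and 1.28 and 1.22 in sham. It was 0.364, 0.481 and 0.210 after 3 days and 1.20, 0.183 and 0.454 after 10 days of TAC, 0.728 and 0.392 after MI, 0.451, 0.119 and 0.306 after 4 days and 1.03, 0.316 and 0.256 after 10 days of swimming. The 3 day TAC libraries lay below both sham libraries, whereas the sedentary libraries overlapped every swim group. Hrc fell by 0.74 after 3 days of TAC against sham (SE 0.28, adjusted p = 0.0310, limma), a ratio of means of 0.282, and by 1.05 with the length and GC trend removed (adjusted p = 0.00748). After 4 days of swimming the difference was -0.50 (adjusted p = 0.0834) as deposited and -0.79 (adjusted p = 0.0168, limma) with the trend removed. In the authors' deposited table Hrc was lower there by -1.82 (q = 0.00145), a log2 fold change that is not on the log2(FPKM + 1) scale. The TAC call was lost without sham replicate 1 (adjusted p = 0.123), sham replicate 2 (0.0948), 3 day TAC replicate 1 (0.0582) or 3 day TAC replicate 3 (0.0892), and with no filter (0.0570). In the same comparison 4 of 6 tested genes of the skeletal muscle list fell (median of the 6 -1.51) and 1 of 15 cardiomyocyte markers. The myosin genes of the skeletal muscle list ran with the cardiomyocyte marker Myh6, so these lists may not be separate. Their part in the result was not tested.

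Trdn (triadin, mm10 chr10:33083482-33476709) anchors calsequestrin at the release channel. It was 0.0886, 0.0193 and 0.0993 FPKM in sedentary fibroblasts, 0.112 and 0.123 in sham, 0.0718 and 0.0563 after MI, and at most 0.0482 in the 12 TAC and swim libraries, where 2 were listed at 0. Ryr2 (mm10 chr13:11553102-12106945), the release channel, was 0.262, 0.0528 and 0.178 FPKM in sedentary fibroblasts, 0.237 and 0.278 in sham and 0.209 and 0.143 after MI. It was 0.0287, 0.0396 and 0.0160 after 3 days and 0.102, 0.0105 and 0.114 after 10 days of TAC, 0.0252, 0.0129 and 0.0158 after 4 days and 0.0835, 0.0205 and 0.0259 after 10 days of swimming. For both genes the 3 day TAC libraries lay below sham and the 4 day swim libraries below sedentary, with no overlap.

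With the minimum of 0.1 FPKM, Ryr2 was lower by -1.48 log2 units after 3 days of TAC against sham (SE 0.32, adjusted p = 0.00116) and Trdn by -0.97 (SE 0.21, adjusted p = 0.00134, limma), where 24.8% of genes were called lower. Trdn reached 0.1 FPKM only in the sham libraries (0.112 and 0.123), so it entered this fit through the group where it was high. Its call against sham therefore only describes these libraries, and without either sham library Trdn left the fit. Against sedentary the differences of Ryr2 and Trdn were -1.08 (adjusted p = 0.00428) and -0.63 (adjusted p = 0.0101) after 4 days of swimming (26.7% of genes lower), and -0.82 (adjusted p = 0.0352) and -0.53 (adjusted p = 0.0408) after 10 days (12.6% lower, limma). None of these 6 calls held with the length and GC trend removed, and 3 differences changed sign: after 3 days of TAC they became -0.16 for Ryr2 and -0.05 for Trdn, after 4 days of swimming 0.27 and 0.09, and after 10 days 0.22 and -0.11. The direction of Ryr2 in swimming, and of Trdn at 4 days, thus depends on that step. In the authors' deposited table Ryr2 was lower by -3.05 (q = 5.02e-09) after 3 days of TAC, -3.05 (q = 9.36e-08) after 4 days and -1.85 (q = 8.74e-05) after 10 days of swimming. Those are log2 fold changes, not on the scale of the limma differences, which add 0.1 FPKM. As deposited, the Trdn calls in swimming also needed single libraries: without sedentary replicate 1 or 3 they were lost at 4 days (adjusted p = 0.0528 and 0.0507) and at 10 days (0.161 and 0.147), and at 10 days also without swim replicate 2 (0.109) or 3 (0.150). The Ryr2 call at 10 days of swimming was lost without sedentary replicate 1 (0.195) or 3 (0.0941), or swim replicate 2 (0.129) or 3 (0.108, all adjusted p by limma).

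Jph2 (junctophilin 2, mm10 chr2:163336241-163397993), which holds the store close to the cell membrane, ran among fibroblast libraries from 0.467 to 1.93 FPKM with a median of 0.803. It was 1.93, 0.872 and 1.10 FPKM after 10 days of TAC, 1.32 and 1.10 after MI, and 0.741, 0.647 and 0.467 after 10 days of swimming. The 10 day swim libraries lay below all 10 day TAC libraries, and both MI libraries lay above the sedentary ones (0.956, 0.647 and 0.907). The difference between 10 days of swimming and 10 days of TAC was -0.48 (SE 0.14, adjusted p = 0.0236, limma). It became -0.12 with the length and GC trend removed (adjusted p = 0.592), was not called when only these groups were fitted (adjusted p = 0.0629), and was lost without 10 day TAC replicate 1 (-0.29, adjusted p = 0.106) or 10 day swim replicate 3 (adjusted p = 0.110). After MI the difference was 0.27 (adjusted p = 0.335, limma). In the authors' deposited table Jph2 was lower after 10 days of swimming than after 10 days of TAC by -1.06 (q = 0.00767). It was higher there after 10 than after 3 days of TAC by 0.86 (q = 0.0488). Both values are log2 fold changes and not differences of log2(FPKM + 1).

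Slc8a1 (NCX1, mm10 chr17:81373104-81738377), which moves calcium out across the cell membrane, had its highest deposited levels among the fibroblasts after MI, an order that did not hold with the length and GC trend removed, where the difference from sedentary was larger after 10 days of TAC (1.75) and 4 days of swimming (1.14) than after MI (0.92). Its levels were 0.985 and 0.954 FPKM after MI and 0.481, 0.370 and 0.494 in sedentary fibroblasts. They were 0.462 and 0.562 in sham, 0.279, 0.323 and 0.296 after 3 days and 0.770, 0.470 and 0.348 after 10 days of TAC, 0.368, 0.208 and 0.315 after 4 days and 0.379, 0.340 and 0.303 after 10 days of swimming. Both MI libraries lay above every other fibroblast library, and their mean was 31.3% of the cardiomyocyte level as deposited, against 14.5% in sedentary fibroblasts. The ratio of means was 2.16, and with the minimum of 0.1 FPKM the difference was 0.97 log2 units (SE 0.25, adjusted p = 0.0191, limma), where 8.34% of genes were called higher.

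That Slc8a1 difference was 0.92 with the length and GC trend removed (adjusted p = 0.0246) and 0.44 with no filter and a pseudocount of 1 (adjusted p = 0.00657, 6.75% of genes higher). It was not called without sedentary replicate 2 (0.86, adjusted p = 0.0673, limma). It was also not called without MI replicate 1 (0.95) or MI replicate 2 (0.99), each of which leaves 1 MI library that the fit assumes to vary like the other groups. In the authors' deposited table Slc8a1 was higher after MI by 1.15 (q = 0.00629). There it was also higher after 10 than after 3 days of TAC (0.86, q = 0.0248). It was lower there after 10 days of swimming than after 10 days of TAC (-0.80, q = 0.0251). The summed cardiomyocyte markers in the MI libraries (213 and 239 FPKM) lay within the sedentary range and 0 of 15 tested ones were called. Smooth muscle and pericyte markers were higher: 5 of 11 tested rose, and the list of 12 summed to 101 and 195 FPKM after MI against 42.9 to 58.4 in sedentary, with none at 0. Their part in the result was not tested. In TAC and swimming the sign of Slc8a1 depended on the length correction: -0.61 (adjusted p = 0.0548) after 3 days of TAC against sham as deposited and 1.15 (adjusted p = 0.00232) corrected, 0.15 and 1.75 after 10 days of TAC, -0.48 and 1.14 after 4 days of swimming, and -0.31 and 0.90 after 10 days. The MI libraries share the length slope of the sedentary ones, and there both values were close.

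S100a1 (mm10 chr3:90511033-90514330) rose as deposited after TAC and after swimming. Its levels were 5.97, 4.68 and 9.14 FPKM in sedentary fibroblasts, 6.36 and 10.8 in sham and 6.37 and 6.38 after MI. They were 19.02, 19.2 and 19.5 after 3 days and 25.4, 20.8 and 42.7 after 10 days of TAC, 20.0, 28.8 and 24.7 after 4 days and 17.4, 15.05 and 15.1 after 10 days of swimming. As deposited, each of the 12 TAC and swim libraries lay above each of the 7 sedentary, sham and MI libraries (15.05 to 42.7 against 4.68 to 10.8 FPKM). The same libraries also separate by length slope (-0.84 to -0.51 against -0.30 to -0.18), and S100a1 has the shortest transcript of the 10 genes. The share of all genes that separate in this way was not counted.

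The S100a1 difference was 1.12 after 3 days of TAC against sham (SE 0.29, adjusted p = 0.00314, ratio of means 2.24) and 1.99 after 10 days of TAC against sedentary (SE 0.26, adjusted p = 6.85e-06, ratio 4.49). It was 1.78 after 4 days of swimming (SE 0.26, adjusted p = 1.65e-05, ratio 3.72) and 1.19 after 10 days (SE 0.26, adjusted p = 0.0014, ratio 2.40, limma). With the length and GC trend removed these became 0.12 (adjusted p = 0.702), 1.04 (0.0006), 0.71 (0.00873) and 0.51 (0.0662), so the calls at 3 days of TAC and 10 days of swimming were lost. Leaving out 1 library kept the calls against sedentary in all cases (1.70 to 2.22, 1.59 to 2.01 and 1.001 to 1.42), and the call against sham was lost without sham replicate 1 (0.78, adjusted p = 0.0773).

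After MI the S100a1 difference was -0.00, and in sham against sedentary it was not called. After 10 days of swimming S100a1 was lower than after 10 days of TAC (-0.80, SE 0.26, adjusted p = 0.0315, limma), with no overlap. That call was lost with the trend removed (-0.52, adjusted p = 0.0808), with no filter (0.0599), and without 10 day TAC replicate 3 (-0.51, adjusted p = 0.183) or any of the 10 day swim replicates 1, 2 and 3 (adjusted p = 0.0682, 0.0628 and 0.101).

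The plot of members against cardiomyocyte markers shows how far single libraries carry these levels. Over the 19 fibroblast libraries, which share treatment and length bias within a group, the log2 level of Myh6, the main motor protein of the adult mouse heart, correlated with Atp2a2 at r = 0.90, with Ryr2, Hrc and Trdn at 0.88, with Pln at 0.78 and with Casq2 at 0.71. The value was 0.65 for Slc8a1, 0.52 for Jph2, -0.38 for S100a1 and -0.02 for Sln. Myh6 itself was 10.4, 2.38 and 12.4 FPKM in sedentary fibroblasts, 11.8 and 12.6 in sham, and 2.48, 3.00 and 1.59 after 3 days of TAC. It was 1.70, 0.443 and 1.11 after 4 days of swimming, and 374, 288 and 452 in cardiomyocytes. Tnnt2, cardiac troponin T, was 5.67, 1.76 and 9.997 FPKM in sedentary fibroblasts, 8.91 and 8.12 in sham, 6.86, 8.03 and 4.75 after 3 days and 16.6, 5.99 and 19.1 after 10 days of TAC. Myh6 does not stand for the whole list. With the summed 16 markers the correlation was 0.29 for Atp2a2, 0.24 for Ryr2 and for Trdn, 0.45 for Hrc and 0.19 for Slc8a1, and 0.84 for Casq2, 0.81 for Pln, 0.61 for Jph2, 0.53 for S100a1 and -0.02 for Sln. The 3 day TAC libraries lay above both sham libraries for 7 of the 16 markers and below for 8, where 22.2% of 20951 genes lay above and 28.8% below. The 8 were Myh6, Tnnt2, Mb, Ttn, Actn2, Mybpc3, Tcap and Ldb3. Among the 7 were Tnnc1, cardiac troponin C (16.5, 17.4 and 15.7 against 10.6 and 8.33 FPKM), and Myl3, a myosin light chain (33.8, 34.3 and 34.3 against 19.9 and 17.8).

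**Figure D4:**
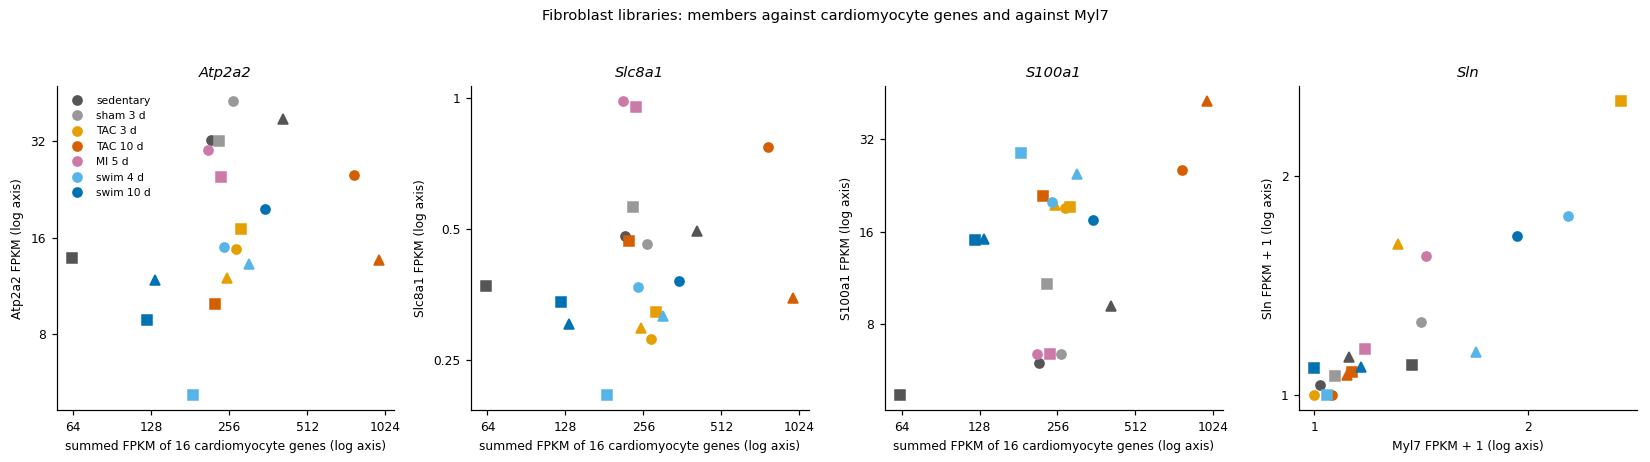
Each point is 1 of 19 fibroblast libraries, coloured by group: Atp2a2, Slc8a1 and S100a1 FPKM against the summed FPKM of 16 cardiomyocyte markers, and Sln against Myl7 (FPKM + 1), on log axes. All levels are as deposited: the 12 TAC and swim libraries, which also differ from the others in length slope, lie above them in S100a1 at any marker sum. Both MI libraries lie highest in Slc8a1, and Sln runs with Myl7.

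Among the 9425 tested genes, those whose log2 level was most like each member over the 19 fibroblast libraries were also described by Pearson's r. For Atp2a2 they were Atp2a1 (r = 0.987), Acsl1 (0.939) and Zdhhc5 (0.916). For Pln they were Mb (0.921), Ldb3 (0.911) and Rcan2 (0.885), and for Casq2 Smyd1 (0.947), Adck3 (0.927) and Rcan2 (0.925). For Hrc they were Myh13 (0.917), Lmod2 (0.916) and Myom1 (0.915), for Jph2 Pygb (0.896), Ccng1 (0.787) and St3gal2 (0.777), and for S100a1 Map1lc3a (0.981), Atp5c1 (0.975) and Atp5k (0.969). With the group means removed, the nearest genes were Mb (0.987) for Pln, Tnni3 (0.963) for Casq2, Myom1 (0.980) for Hrc, Atp2a1 (0.983) for Atp2a2 and Atp5c1 (0.901) for S100a1.

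The other genes of calcium handling were taken from 7 lists with 94 entries, 92 of them in the table and 57 tested between fibroblast groups. After 3 days of TAC against sham 18 rose and 16 fell, after 10 days of TAC against sedentary 21 rose and 16 fell, after 4 days of swimming 19 rose and 14 fell, and after 10 days 13 rose and 9 fell. After MI 4 rose and 1 fell. These shares are close to those over all genes in each comparison. In the 6 tested genes of calcium and sodium extrusion, 1 rose and 4 fell in each of 3 day TAC, 10 day TAC and 4 day swimming, where 25.8%, 27% and 26.3% of all genes were lower. Corrected for length and GC content, 0 rose and 2 fell in each TAC comparison, and 2 rose and 3 fell in swimming. Atp2b1, a calcium pump of the cell membrane, fell by 1.96 after 3 days of TAC (SE 0.25, adjusted p = 9.78e-06), by 1.42 after 10 days (SE 0.23, adjusted p = 4.34e-05) and by 1.34 after 4 days of swimming (SE 0.23, adjusted p = 7.19e-05, limma). These were -1.06, -0.57 and -0.45 with the length and GC trend removed, all called. Among kinases, phosphatases and calmodulins, Ppp1ca, a catalytic subunit of protein phosphatase 1, rose by 1.76, 1.96 and 1.80 in the same comparisons (1.02, 1.21 and 1.02 with the trend removed, all called). Trpm7, a membrane channel of the store-operated list, fell by 1.26, 1.07 and 0.99, and with the trend removed only the 3 day TAC difference was called (-0.29, against -0.15 and -0.08). Ppp3ca, a catalytic subunit of calcineurin, fell by 1.57 after 3 days of TAC and by 1.05 after 10 days (-1.01 and -0.49 with the trend removed, both called). Calm3, a calmodulin gene, rose by 1.33 and 1.58 (0.87 and 1.08, both called), and Fkbp1a, which binds the release channel, rose by 1.32 after 3 days of TAC (0.83, called). Hspb6 rose by 1.51 after 10 days of TAC (adjusted p = 0.0150, limma), a call lost with the trend removed (1.0003) and without sedentary replicate 2 (1.004, adjusted p = 0.0756) or 10 day TAC replicate 1 (0.0711) or 3 (0.0708).

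In swimming at 4 days, Ccdc109b of the mitochondrial list rose by 1.76 (it has no trend-removed value), Fxyd1 by 1.32 (0.20 with the trend removed, not called), and Atp2b4, a further membrane calcium pump, fell by 1.30 (-0.36, called). At 10 days Ppp1ca rose by 1.14 and Sri (sorcin) by 1.03 (0.66 and 1.01 with the trend removed, both called), and Fxyd1 rose by 0.95, while Atp2b1 fell by 0.89, Atp2b4 by 0.86 and Trpm7 by 0.73. The last 4 calls were lost with the trend removed (0.27, -0.31, -0.18 and -0.14). Between 4 days of swimming and 3 days of TAC, Fxyd1 was higher by 0.69 (adjusted p = 0.0309, limma), a call lost on leaving out any 1 of the 6 libraries (adjusted p from 0.0521 to 0.129) and with the trend removed (0.63). From 3 to 10 days of TAC, Cacnb3 rose by 0.79 and Tmem38b, a store membrane channel, fell by 0.54 (0.61 and -0.41 with the trend removed, both called). The Tmem38b call (adjusted p = 0.0397) was lost without 3 day TAC replicate 1 (0.180) or 3 (0.122), or 10 day TAC replicate 1 (0.0621), 2 (0.126) or 3 (0.0862, limma).

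After MI the called genes were Prkacb (0.63, SE 0.17), a catalytic subunit of protein kinase A, Cacnb3 (0.63, SE 0.13), a calcium channel beta subunit, Camk2d (0.56, SE 0.14), the main cardiac CaM kinase II, and Fxyd1 (-0.85, SE 0.22), phospholemman. Their adjusted p values were 0.0257, 0.00303, 0.0146 and 0.0152 by limma. The calls other than Cacnb3 rested on single libraries. Prkacb was not called without sedentary replicate 1 or 2 or MI replicate 1 or 2 (adjusted p = 0.0610, 0.0663, 0.0732 and 0.290), Camk2d without sedentary replicate 2 or MI replicate 2 (0.0512 and 0.300), and Fxyd1 without sedentary replicate 1 or MI replicate 2 (0.0509 and 0.400). The 3 were also not called when only the MI and sedentary groups were fitted (adjusted p = 0.0863, 0.102 and 0.117).

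Between 10 days of swimming and 10 days of TAC, 5 of the 57 genes were higher and 11 lower (all genes 10.9% higher, 13.2% lower). Gem, a small GTPase that restrains calcium channels, was higher by 1.40 (SE 0.30, adjusted p = 0.00337), and Orai1, the pore of store-operated entry, was lower by -0.86 (SE 0.19, adjusted p = 0.0046, limma). Srl (sarcalumenin) and Hspb6, both prominent in muscle cells, were lower by -1.02 (adjusted p = 0.0252) and -1.82 (adjusted p = 0.0176), and both calls were lost without 10 day TAC replicate 1 (adjusted p = 0.0897 and 0.0630), 10 day TAC replicate 3 (0.117 and 0.0874) or 10 day swim replicate 3 (0.09997 and 0.0777), that of Srl also without swim replicate 2 (0.0706). In cardiomyocytes against sedentary fibroblasts 38 of 68 tested genes were higher and 19 lower, where 38.7% of all genes were higher and 38.6% lower. Tmem38a, a store membrane channel, was higher by 5.43 (SE 0.29), Srl by 4.74 (SE 0.29) and Hspb6 by 5.44 (SE 0.49), while Gem (-4.41, SE 0.32), Atp2b1 (-1.77, SE 0.21) and Atp2b4 (-1.59, SE 0.16) were lower, with adjusted p of at most 2.86e-07 by limma. Of the 8 tested genes of store-operated entry, 1 was higher and 6 were lower in cardiomyocytes.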

How the data were processed

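Poly-A RNA of 22 libraries was made into stranded libraries and sequenced, per the labels' protocols. The deposited FPKM values rest on mm10 and Cufflinks 2.0.2, per the submitters' processing notes, with aligner and gene models not given in the sources used here. A further deposited table of the authors also holds log2 fold changes, read as given after infinite values were set aside, and q-values as the authors adjusted them. The 44 confidence columns were not used here.

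limma 3.58.1 under R 4.3.3, with its trend and robust options, fitted log2(FPKM + 1) of the genes that reached 1 FPKM in 2 or more libraries: 9425 genes in the 19 fibroblast libraries, and 10371 genes in all 22 for cardiomyocytes against fibroblasts. Called means p under 0.05 after Benjamini-Hochberg adjustment over all genes of the fit. Because 1 is added, differences of low genes are understated. Length and GC content, from the longest transcript in GENCODE M21, were corrected by removing a spline with 4 degrees of freedom from each library. The test was checked on simulated data: per comparison, 65 to 80% of the genes changed by 1 log2 unit and 96 to 100% of those changed by 2 were called, and 2.91 to 7.43% of calls were false, the highest for 10 day swim against 10 day TAC. The simulation gave each gene independent normal noise around 1 mean and changed only a small set of genes. It held no length or GC bias, so its false share does not cover that bias or comparisons in which many genes differ.

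No read step was visible in low FPKM values, so depth stays unknown and no interval for counting error is given. No pair of libraries held identical values in more than 0.00738% of 13553 genes. Symbols were matched exactly, and promoters were matched by symbol. In the fit, the genes named outside the 10 were, per comparison, up to 3 called list genes with the greatest differences in each direction, some of which are not reported here. The 10 genes, the lists and the naming rule were chosen with earlier results of these data known. The alternatives were another pseudocount, no filter, scaling to a common median, the trend correction, plain settings, fits of the compared groups only, a replicate block and leaving out each library. A lower minimum of 0.1 FPKM was added after seeing the data.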

Additional observations from a re-analysis of the deposited data

Results flagged for a closer look

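Cacnb3, a beta subunit of voltage-gated calcium channels, changed over time differently in TAC and in swimming: the change from 3 to 10 days of TAC minus that from 4 to 10 days of swimming was 0.92 log2 units (SE 0.16, adjusted p = 0.00435, limma interaction term). Its levels were 1.01, 1.07 and 1.14 FPKM after 3 days and 2.10, 3.20 and 2.56 after 10 days of TAC, against 1.24, 1.17 and 1.10 after 4 days and 0.959, 1.21 and 0.824 after 10 days of swimming. The 10 day TAC libraries lay above all the others. With the length and GC trend removed the value was 0.58 and was still called.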

How the results depend on the processing

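Counts of called members, of 6 tested unless a lower minimum lets in all 10, moved as follows. With the length and GC trend removed, 3 day TAC against sham went from 3 to 1 (46.3% of all genes called), 10 day swim against sedentary from 1 to 0 (33.9%) and 10 day swim against 10 day TAC from 3 to 1 (21.3%). With no filter the count was 1 for MI, 4 for 4 day swim and 3 for 10 day swim against sedentary (8.21%, 39.2% and 23.5% of all genes). With the minimum of 0.1 FPKM, added after seeing the data, it was 1, 4 and 3 (10.6%, 56.3% and 34.3% of all genes). With that minimum and the trend removed it was 4 for 10 day TAC against sedentary, where 3958 of 13418 genes were called higher and 2635 lower. For MI it was 1, where 1419 of the 13418 were called higher and 375 lower. Fitting only the groups compared left 1 call for 10 day TAC (3158 of 8607 genes higher, 2065 lower). Scaling gave 2 for 10 day swim against sedentary (2248 of 9425 genes higher, 1903 lower) and moved the median percent of the cardiomyocyte level in sham from 2.59 to 2.48. Under the minimum of 0.1 and the trend removed, Ryr2 turned to 0.27 (4 day swim) and 0.22 (10 day swim) and Trdn to 0.0852 (4 day swim). The causes were not tested.

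Leaving out 1 library gave 0 to 3 calls for 3 day TAC against sham (0 without sham replicate 1, 1 without TAC replicate 3), 1 to 3 for 10 day TAC against sedentary, 0 to 0 for MI, 1 to 4 for 4 day swim (4 without sedentary replicate 2), 1 to 2 for 10 day swim, 0 to 3 for 10 day swim against 10 day TAC, 0 to 1 for 10 against 3 day TAC, and 9 to 10 for cardiomyocytes.

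The other alternatives kept 137 counts and medians within the limits set, against 30 that moved. Of the values for single genes 834 kept their direction and call, 136 lost the call and 3 reversed. Scaling to a common median moved the median of all genes in MI against sedentary from 0.10 to -0.02. With the replicate number as a block, cardiomyocytes against fibroblasts had 10 calls of 10 and MI against sedentary 0; the block ended the calls of Prkacb, Camk2d and Fxyd1 after MI. Deviations of same-numbered libraries correlated at 0.24, 0.31 and 0.06 for cardiomyocytes and fibroblasts, each best with its own number, and at -0.35 for MI and sedentary, so the numbers were not taken as pairs. The titles tie replicate 3 of both cell types to the same date and give replicates 1 and 2 of both the same number, without saying what these mark, and the block changed none of the 10 calls there. FPKM without counts sets no limit on counting error, and Ryr2, Trdn, Slc8a1 and Sln were all under 1 FPKM in fibroblasts except Sln in 1 library.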
